A study of Drosophila melanogaster with 8 samples.

Results

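The genes described here are the ecdysone receptor and the response genes that act below it: EcR, usp, br, Eip74EF, Eip75B, Eip78C, Hr3 (also called Hr46), ftz-f1, Eip93F and Kr-h1. They were chosen by name and by no threshold on values, though with earlier results of these data known. They are 10 of 17225 genes or unmatched identifiers after counts were summed per gene, and they hold 54 of 34463 RefSeq transcripts. RNA was sequenced from pooled dissected larval brains of Canton-S (CS), the wild-type strain, at 58 to 62 h after egg laying (AEL) and of STIM KO larvae at 72 to 76 h AEL, with 4 biological replicates each. STIM KO larvae are null for Stim, which encodes the sensor of calcium in the endoplasmic reticulum. The mutants grow slowly, and the later age was taken so that larvae of a similar stage could be compared, so genotype and age differ together and cannot be told apart. The loss of Stim is in every cell of the larva and not in the brain alone.

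Ecdysone is the steroid hormone that times the moults of an insect. It is made in the ring gland, enters cells through an importer, and binds a heterodimer of the nuclear receptors EcR and Usp. The bound receptor switches on early genes, which encode the transcription factors Broad (br), Eip74EF and Eip75B. These in turn act on later genes of the cascade, among them the nuclear receptors Eip78C, Hr3 and ftz-f1, and Eip93F at the step towards the adult. Kr-h1 encodes a zinc finger protein best known as the response gene of juvenile hormone, which keeps the larval programme in place. In the larval brain this cascade takes part in the timing of neuroblast fates and in the remodelling of neurons.

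The reads assigned to transcripts numbered 395680 to 2090717 per library. The libraries fell into 2 sets in both genotypes: 9.89% to 18% of the reads were ambiguous between features for replicates 1 and 2, against 33.5% to 34.5% for replicates 3 and 4. Neither the labels nor the methods name these sets, so values are given for every library, and the main ones also within the sets and from a fit that holds the set as a term. A count of 0 allows up to 3 counts, which is a floor of 1.25 to 9.62 CPM (counts put on the same total in every library, with TMM factors) for a gene, depending on the library. Floors and intervals cover counting error only. Stim itself, summed over its transcripts, had 6, 4, 12 and 14 counts in CS replicates 1 to 4 against 14, 19, 3 and 2 for STIM KO, and the genotypes overlapped. One Stim transcript, NM_001298380.1, was counted 2, 3, 6 and 9 times for CS and 0 times in each STIM KO library. The remaining Stim counts, 4, 1, 6 and 5 for CS against 14, 19, 3 and 2 for STIM KO, were all on NM_206747.3. The neuronal marker elav was detected in every library at 150 to 1260 CPM. In these bulk samples, fewer cells of a type and less RNA per cell cannot be told apart.

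Across the pathway the early genes br and Eip75B, the receptor gene EcR and the juvenile hormone response gene Kr-h1 were read in every library. Eip78C had few counts in each library, and Hr3, ftz-f1 and Eip93F were close to absent from the counts. Eip74EF was read in most libraries, at 0 to 263 CPM. All 10 genes had at least 1 count somewhere, but only EcR, br, Eip75B, Eip78C and Kr-h1 passed the expression filter and were tested. None of these 5 passed an adjusted p of 0.05 in edgeR's quasi-likelihood test of genotype, where the smallest adjusted p was 0.696 (br). Over all 5540 genes tested, 0% were called at that threshold. At an unadjusted p under 0.05, 1 of the 5 was past the threshold (br, higher in STIM KO), beside 6.52% of all genes. With the library set as a term 39 genes (0.704%) were called, and with the replicate number as a block 16 (0.289%), none of them among these 5, whose smallest adjusted p was then 0.122 and 0.119. By DESeq2 78 genes were called, and br, with the lowest adjusted p of the 5, had 0.309. None of the 5 genes tested had CS and STIM KO libraries that did not overlap, against 6.23% of all genes tested. None of them was apart in the same direction in both sets, against 19.3%. The genes that were not tested overlapped as well, but usp, Hr3, ftz-f1 and Eip93F had too few counts to come apart. The smallest exact permutation p of the 10, over 4 libraries against 4, was 0.114 (2-sided; the design allows 0.0286 at the smallest).

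**Figure D1:**
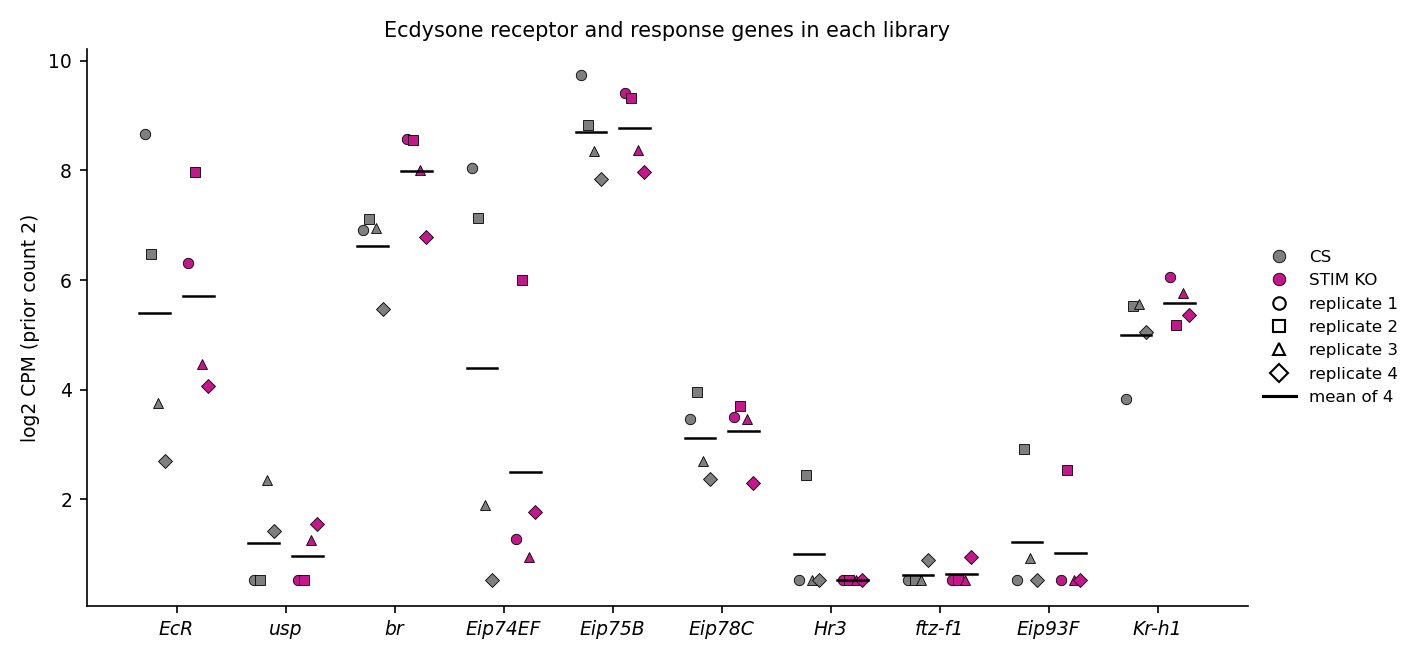
Level of each of the 10 genes in each library, as log2 CPM with a prior count of 2 (vertical axis), for CS (grey) and STIM KO (magenta); symbols give the replicate and lines the mean of 4 libraries. The STIM KO libraries of br lie at 109 to 381 CPM and those of CS at 42.9 to 137 CPM, while EcR and Eip74EF spread more among replicates than between genotypes and usp, Hr3, ftz-f1 and Eip93F lie at or near the level of no counts.

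EcR encodes the hormone-binding subunit of the receptor. The gene lies on chromosome 2R from 6087873 to 6169087 (dm6), and 25 other annotated genes overlap its span, 14 of them on the opposite strand. Of the exon bases of EcR 29.4% belong to 1 transcript only, and reads over the shared bases may have been counted as ambiguous. The level of EcR below is the sum over its transcripts. Its level was 404, 86.9, 12.0 and 5 CPM in CS replicates 1 to 4, and 77.9, 252, 20.8 and 15.3 CPM in STIM KO. The 2 sets of libraries did not overlap for EcR, whereas the genotypes did: replicates 1 and 2 lay above replicates 3 and 4 by 3.61 on the log2 CPM scale, where the median size of this difference over all genes tested was 1.24. Between genotypes the fitted log2 fold change of STIM KO over CS was -0.46 (standard error 1.30) at an adjusted p of 0.996. CS replicate 1 decided its sign, since without that library it was 1.39, and it was 0.20 with the set as a term, so no direction can be given for EcR. Nearly all counts in replicates 1 and 2 were on transcript NM_001169590.2, with 126 and 43 counts for CS and 78 and 171 for STIM KO. In replicates 3 and 4 the same transcript had 22 and 8 counts for CS against 28 and 15 for STIM KO. A further transcript, NM_165461.3, was counted almost only in replicates 3 and 4, at 4 and 3 reads for CS against 13 and 15 for STIM KO. It held 15.4% and 25% of the EcR counts there in CS, and 30.2% and 48.4% in STIM KO. Those shares rest on few reads, with exact (Clopper-Pearson) 95% intervals of 4.36% to 34.9%, 5.49% to 57.2%, 17.2% to 46.1% and 30.2% to 66.9%. Across all 8 libraries the exact permutation test of the share gave p = 0.457 (2-sided). That test spans both sets, and the share was at most 0.578% in replicates 1 and 2. It therefore cannot decide whether the share differed in replicates 3 and 4.

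The partner gene usp, the fly counterpart of the vertebrate retinoid X receptor, was counted only in the deeper set. Replicates 3 and 4 gave 8 and 3 counts for CS against 2 and 3 for STIM KO, and replicates 1 and 2 gave 0 for both. All but 1 of these libraries were at or under the floor of 3 counts, so no fold change is given. The sole usp transcript with counts was NM_001272239.2. By the Ensembl annotation 17.2% of the exon bases of usp belong to 1 transcript only, and reads over the shared bases may have been counted as ambiguous.

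br, the Broad complex, encodes a family of zinc finger transcription factors that carry the early hormone response. It lies on chromosome X from 1575132 to 1664869 (dm6), and both annotated genes that overlap it are on the opposite strand; as the strand setting of the counting is not given in the sources used here, reads of br and of these genes may not have been told apart. In CS br was at 119, 137, 122 and 42.9 CPM in replicates 1 to 4. In STIM KO it was at 381, 377, 255 and 109 CPM. Each STIM KO library was above the CS library of the same number, and the genotypes overlapped only through STIM KO replicate 4, which lay below 3 of the 4 CS libraries. The mean was 105 ± 42.3 CPM for CS and 281 ± 128 CPM for STIM KO (SD, n = 4 each). By the Ensembl annotation 27.4% of the exon bases of br belong to 1 transcript only. Reads over the shared bases may have been counted as ambiguous and so be missing from these sums.

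The fitted log2 fold change of br was 1.42 (standard error 0.55), a 2.68-fold higher level in STIM KO, at an unadjusted p of 0.0291 (adjusted p 0.696; edgeR, Benjamini-Hochberg over 5540 genes). It therefore did not pass the threshold. The difference in mean log2 CPM was 1.56 within replicates 1 and 2 and 1.19 within replicates 3 and 4, and the test of whether the genotype effect differed between the sets gave an adjusted p of 0.827 with a difference of -0.42 (standard error 0.77). With the set as a term the estimate became 1.35 (standard error 0.40) at an unadjusted p of 0.00625, when 17% of all genes were under 0.05, and an adjusted p of 0.122. Over 17 settings, the first one included, the log2 fold change of br lay between 1.09 and 1.69 and its adjusted p between 0.119 and 1. Its unadjusted p lay between 0.00129 and 0.109. By edgeR the unadjusted p was above 0.05 without CS replicate 1 (0.0522), CS replicate 4 (0.0668), STIM KO replicate 1 (0.075) or STIM KO replicate 2 (0.0746). The exact permutation test on log2 CPM gave p = 0.114 (2-sided, 4 libraries against 4). Without STIM KO replicate 4, the library through which the genotypes overlapped, the exact permutation p was 0.0286. Without any other single library it was 0.114 to 0.2.

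**Figure D2:**
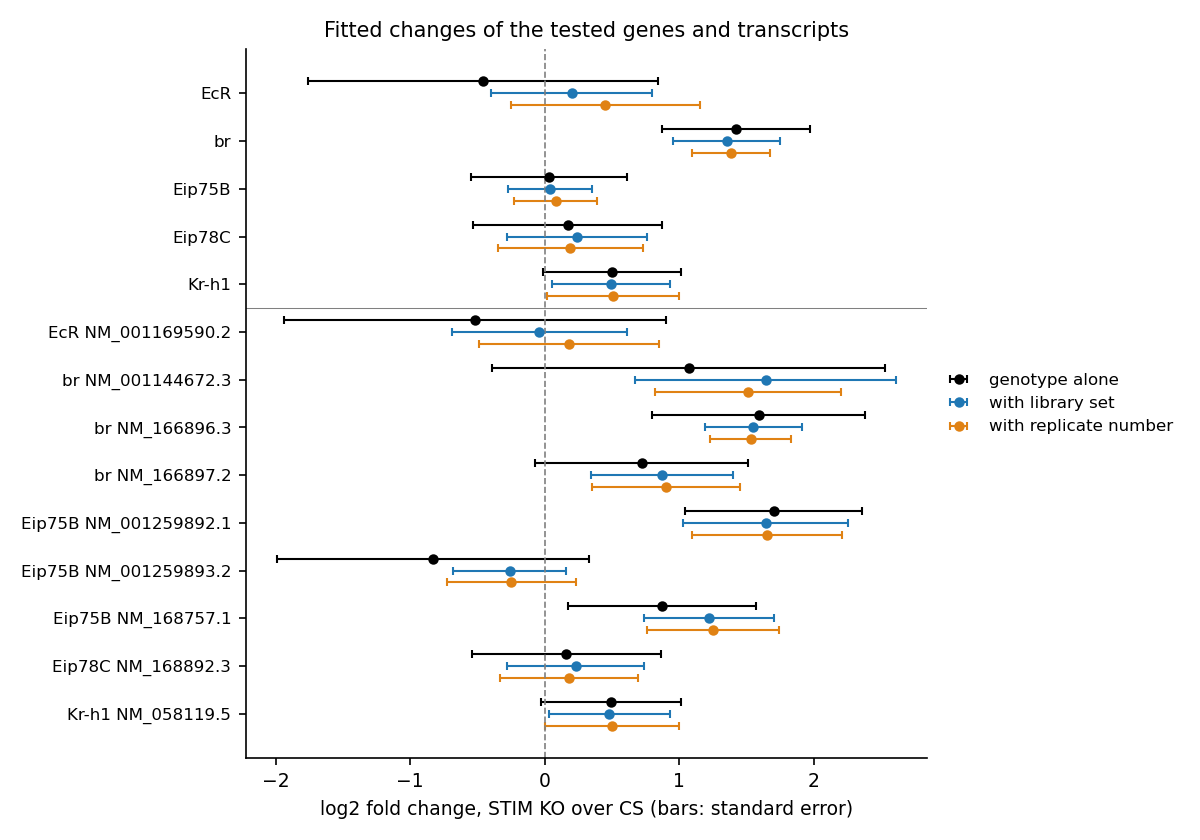
Fitted log2 fold change of STIM KO over CS (horizontal axis; bars are standard errors) for the 5 genes tested, above the line, and the 9 transcripts tested, below it, from fits with genotype alone, with the library set and with the replicate number. br (1.42, 1.35 and 1.38), its transcript NM_166896.3 and the Eip75B transcript NM_001259892.1 lie above 0 in all 3 fits, and EcR changes sign between them.

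Of the br transcripts, NM_166896.3 had most counts. Its counts were 32, 64, 81 and 47 for CS against 340, 247, 237 and 99 for STIM KO, or 101, 129, 37.7 and 20.1 CPM against 338, 357, 115 and 49.7 CPM. Within each set both STIM KO libraries lay above both CS libraries, which held in one direction or the other for 2 of the 9 transcripts tested of these genes, and for 19.3% of all transcripts tested. Its log2 fold change was 1.59 (standard error 0.79; adjusted p 0.853 with genotype alone, edgeR). With the set as a term it was 1.55 (standard error 0.36) at an unadjusted p of 0.0013 (edgeR, adjusted p 0.0836, the lowest over all settings, which went up to 1). Transcript NM_001144672.3 was nearly confined to replicates 3 and 4: its counts were 0, 0, 158 and 50 for CS against 28, 0, 268 and 104 for STIM KO. It made up 0% to 7.33% of the br counts of a library for replicates 1 and 2, against 47.1% to 59.8% for replicates 3 and 4. Its share had a mean of 27.1% in CS and 26.3% in STIM KO (exact permutation test, 2-sided, p = 0.914). As the sets differ this much, that test says little about a difference within a set. In replicates 3 and 4 the share was 59.8% and 48.5% in CS against 50.7% and 47.1% in STIM KO, where the genotypes overlapped. NM_166897.2 was at 15.8, 8.06, 4.19 and 1.71 CPM in CS and 12.9, 15.9, 9.21 and 6.03 CPM in STIM KO, where the genotypes overlapped (exact permutation test, 2-sided, p = 0.286). Its log2 fold change was 0.72 (standard error 0.79), and 0.30 to 1.29 with 1 library left out. NM_001201596.3 had 25 counts in all and was not tested.

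**Figure D3:**
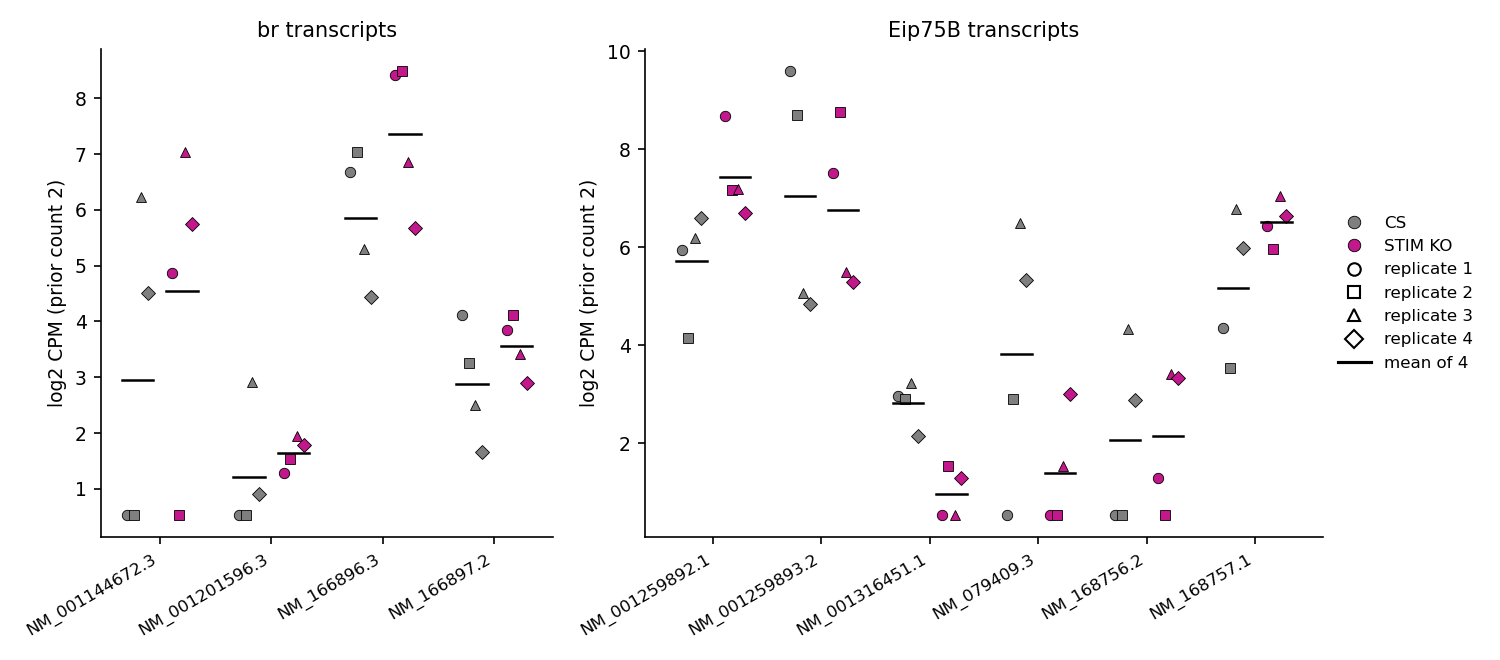
Level of the br transcripts (left) and Eip75B transcripts (right) with at least 10 counts in each library, as log2 CPM with a prior count of 2; colours give the genotype, symbols the replicate and lines the mean of 4 libraries. NM_166896.3 of br and NM_001259892.1 of Eip75B lie higher in STIM KO within both sets, and NM_079409.3 of Eip75B has 190 and 91 counts in CS replicates 3 and 4 against 3 and 13 in STIM KO.

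Eip74EF encodes an ETS-domain transcription factor of the early response (chromosome 3L, 17558672 to 17619325, dm6). It was at 263, 139, 2.31 and 0 CPM in CS, and at 0.999, 62.6, 0.483 and 1.98 CPM in STIM KO. Only CS replicates 1 and 2 and STIM KO replicate 2 stood clearly above the floor, with 82, 69 and 43 counts, and all other libraries had 5 counts or fewer. The gene did not pass the filter. Its difference in mean log2 CPM was -1.90 (exact permutation test, 2-sided, p = 0.343), made up of -3.95 within replicates 1 and 2 and 0.14 within replicates 3 and 4, so the values did not separate the genotypes beyond the spread of replicates. All but 1 of its counts were on transcript NM_001014590.2.

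Eip75B encodes a nuclear receptor that binds haem and is a fly relative of the vertebrate Rev-erb receptors. It was the most deeply counted of the 10 genes and lies on chromosome 3L from 17950953 to 18064696 (dm6). Its summed level was 862, 455, 324 and 227 CPM in CS, and 681, 643, 328 and 250 CPM in STIM KO. The genotypes overlapped throughout, and the difference in mean log2 CPM was 0.08 within each set. The log2 fold change was 0.03 (standard error 0.58; adjusted p 0.999 by edgeR), and 0.04 (standard error 0.31) with the set as a term. Without any single library it lay between -0.24 and 0.46.

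Below the level of the gene, its transcripts differed in where their counts lay. By the annotation 51.4% of the exon bases of Eip75B belong to 1 transcript only, the highest share of these 10 genes, and 6 of its 7 transcripts had at least 10 counts. For NM_001259892.1 the counts were 19, 8, 153 and 224 in CS against 413, 98, 298 and 204 for STIM KO. On the CPM scale that was 60.2, 16.1, 71.3 and 95.6 against 411, 141, 144 and 102. The lowest STIM KO library thus lay just above the highest CS library, and the genotypes did not overlap; this was the case for 1 of the 9 transcripts tested, and for 6.04% of all transcripts tested. Its log2 fold change was 1.70 (standard error 0.66), or 3.25-fold, at an unadjusted p of 0.0275 (adjusted p 0.746 by edgeR over 5829 transcripts). It was 1.03 (edgeR, unadjusted p 0.123) without STIM KO replicate 1, 1.36 to 2.01 without any other single library, and 0.90 by limma voom. None of the 9 transcripts tested was called, beside 0% of all transcripts, and NM_001259892.1 was the sole one under an unadjusted 0.05, beside 6.09%. With the set as a term 3 of the 9 were under 0.05 unadjusted (NM_001259892.1, NM_168757.1 and br NM_166896.3), beside 16.8%, and none was called, beside 0.669%; with the replicate block none was called either, beside 0.24%. The exact permutation p of NM_001259892.1 was 0.0286 (2-sided), the smallest that 4 libraries against 4 allow, and it was 0.0571 when CS replicate 2 or any one of the STIM KO libraries was left out. The difference in mean log2 CPM was 2.88 within replicates 1 and 2 and 0.55 within replicates 3 and 4. A fit with an interaction of genotype and set put the gap between them at -2.36 (standard error 0.90) at an unadjusted p of 0.0257 (adjusted p 0.256).

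NM_168757.1 showed the same kind of gap between the sets. It had 6 and 5 counts in CS replicates 1 and 2 against 85 and 42 in STIM KO, and 234 and 145 in CS replicates 3 and 4 against 270 and 194. The log2 fold change was 0.87 (standard error 0.70; adjusted p 0.990 by edgeR), 0.50 without CS replicate 2, 0.57 without CS replicate 1 and 1.57 without CS replicate 3, and the interaction with the set was -1.95 (standard error 0.75; adjusted p 0.255). NM_001259893.2 had 242 and 206 counts in CS replicates 1 and 2, against 183 and 301 in STIM KO. That was 90% and 91.6% of the Eip75B counts for CS, and 26.8% and 68.1% for STIM KO. In STIM KO replicate 1 NM_001259892.1 held the larger share, 60.6%. For NM_001259893.2 replicates 3 and 4 gave 69 and 64 counts in CS against 90 and 75 in STIM KO. Its log2 fold change was -0.83 (standard error 1.16), and it was 0.09 without CS replicate 1, so its direction rested on that library.

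A further Eip75B transcript, NM_079409.3, lay on the side of CS. CS had 0, 3, 190 and 91 counts against 0, 0, 3 and 13 for STIM KO. In the deeper set it was thus at 88.5 and 38.8 CPM in CS against 1.45 and 6.53 CPM in STIM KO, while in the shallower set both genotypes were at or under the floor. It made up 27.0% and 16.7% of the Eip75B counts of CS replicates 3 and 4 (exact 95% intervals 23.8% to 30.5% and 13.7% to 20.1%), and 0.441% and 2.57% of those of STIM KO (0.0911% to 1.28% and 1.38% to 4.36%). These intervals do not overlap, but they cover the counting error of 4 libraries only. Because of its low counts in 6 libraries, the transcript did not pass the filter. When the filter was dropped, edgeR put its log2 fold change at -3.93 (standard error 1.22; unadjusted p 0.00341, adjusted p 0.4), and the exact permutation p over the 8 libraries was 0.257 (2-sided). NM_001316451.1 also had fewer counts in STIM KO, with 2, 3, 17 and 7 in CS and 0, 1, 0 and 2 in STIM KO. Only 2 libraries, CS replicates 3 and 4, were above the floor of 3 counts, so that its groups did not overlap (exact permutation p = 0.0286, the smallest possible) says little about a fold, and none is given. For NM_168756.2 replicates 3 and 4 gave 40 and 14 counts in CS against 19 and 17 for STIM KO.

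**Figure D4:**
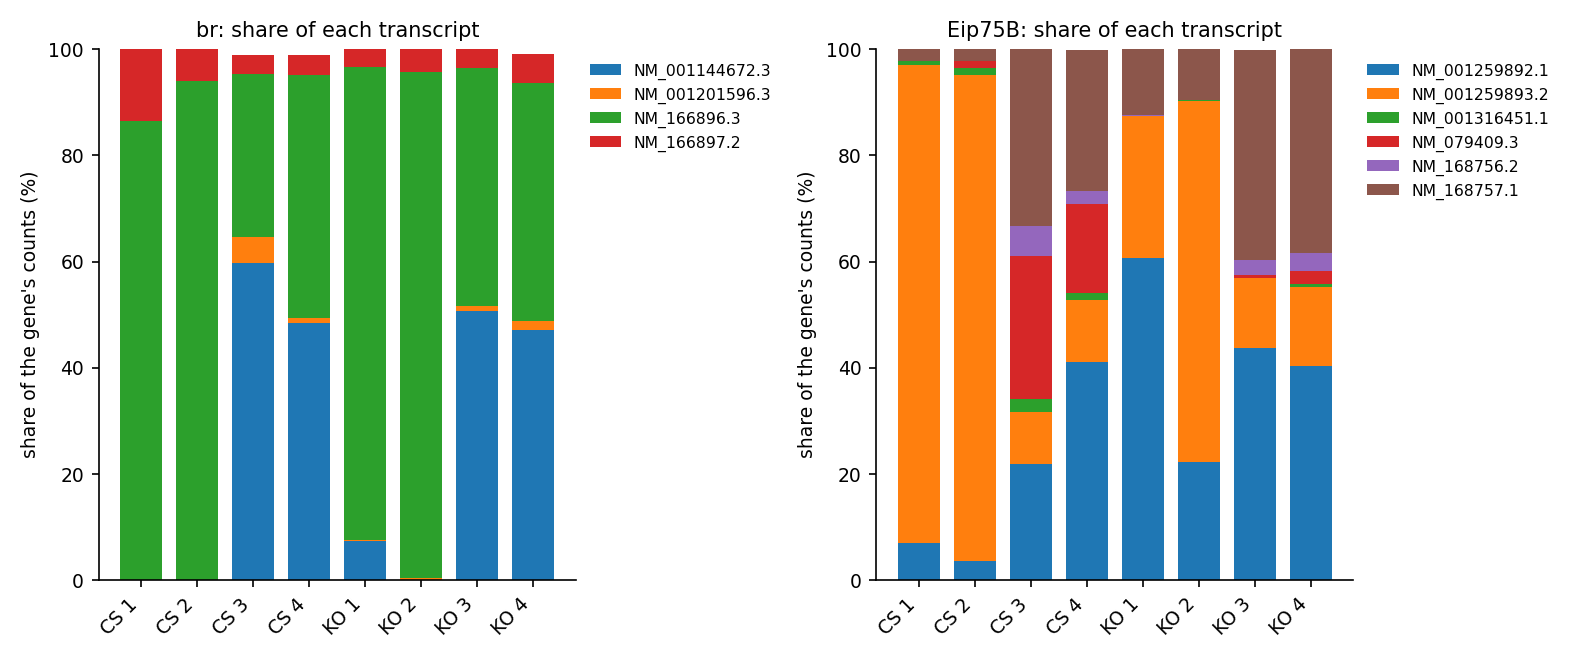
Share of the counts of br (left) and Eip75B (right) that fell on each transcript with at least 10 counts, in percent of the counts of the gene (vertical axis), for the 4 CS libraries and the 4 STIM KO libraries (KO). Replicates 1 and 2 differ from replicates 3 and 4 in both genes, and within replicates 3 and 4 NM_079409.3 of Eip75B holds 27.0% and 16.7% in CS against 0.441% and 2.57% in STIM KO.

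The later genes of the cascade had few counts. Eip78C had 9.62, 14.2, 5.08 and 3.75 CPM in CS, and 9.99, 11.6, 9.66 and 3.46 CPM in STIM KO, from 3 to 20 counts per library. The genotypes overlapped, with a fitted log2 difference of 0.17 (standard error 0.70; edgeR, adjusted p 0.996). Hr3, which relays the signal from the early genes to ftz-f1, had 2 counts in CS replicate 2 and 0 in the 7 other libraries. ftz-f1, the nuclear receptor that gives tissues competence for the next pulse of hormone, had 1 count in replicate 4 of each genotype. Eip93F, a factor of the adult programme, had 3 counts in replicate 2 of each genotype and 1 in CS replicate 3. For these 3 genes every library was at or under the floor, so no difference was detectable at this depth and no fold is given. By the annotation only 3.35% of the exon bases of Hr3 and 5.25% of those of Eip93F belong to 1 transcript, against 31.1% for ftz-f1. How many of their reads were counted as ambiguous was not tested.

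Of the 5 genes tested, Kr-h1 (chromosome 2L, 6082603 to 6096498, dm6) differed least between the sets, with replicates 1 and 2 at -0.29 from replicates 3 and 4 on the log2 CPM scale. Its level was 12.8, 44.5, 45.7 and 31.7 CPM in CS, and 64.9, 34.9, 52.6 and 40.0 CPM in STIM KO. CS replicate 1 was the lowest library, from 4 counts, and the others overlapped. The log2 fold change was 0.50 (standard error 0.51; adjusted p 0.986 by edgeR), and it was 0.02 over replicates 2 to 4. All of its counts were on NM_058119.5.

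Genes that help or surround the receptor were taken from lists written by name. The first list held 11 genes: partners and cofactors of the receptor, the hormone importer Oatp74D, and the other receptor genes Met, gce and DopEcR. Of these 8 were tested, and with genotype alone 0 were higher and 0 lower at an unadjusted p under 0.05, beside 6.52% of all genes. Their median log2 fold change was 0.86, beside 0.04 over all genes tested, with 6 of the 8 above 0, as were 2915 of all 5540. With the set as a term the median was 0.78, beside 0.10, and 2 of the 8 were past an unadjusted 0.05, both higher in STIM KO, beside 17% of all genes. One was DopEcR, a membrane receptor for dopamine and ecdysone. It was at 0, 6.06, 70.6 and 47.1 CPM in CS and 28.0, 40.8, 175 and 83.5 CPM in STIM KO. CS replicates 1 and 2 had 0 and 3 counts of it, at or under the floor. Its log2 fold change in that fit was 1.77 (standard error 0.56, adjusted p 0.145 by edgeR), and 1.33 (adjusted p 0.943) with genotype alone. The other was Oatp74D, the ecdysone importer, at 6.41 to 17.5 CPM in CS and 16.0 to 37.6 CPM in STIM KO. Its log2 fold change was 1.12 (standard error 0.46, adjusted p 0.243 by edgeR) against 1.07 (adjusted p 0.812). CS replicate 1 had 2 counts of Oatp74D, under the floor. Both genes were named after their values were seen. No member of the list was called.

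Of 14 further nuclear receptor genes 6 were tested, and with genotype alone 0 were higher and 1 was lower at an unadjusted p under 0.05, beside 6.52% of all genes. This was Hr4, a receptor of the same early-late class, which was at 103, 82.9, 73.9 and 33.3 CPM in CS and 35.0, 30.6, 18.4 and 23.7 CPM in STIM KO. Only CS replicate 4 came down to the level of STIM KO, below the highest STIM KO library. On the log2 scale STIM KO differed by -1.44 (standard error 0.49; edgeR, unadjusted p 0.0162, adjusted p 0.649), and by -1.42 (adjusted p 0.104) with the set as a term, so it was not called. In that fit Hr51, which encodes another nuclear receptor, was also past an unadjusted 0.05, at 1.06 (edgeR, unadjusted p 0.0289, adjusted p 0.234), so that 1 of the 6 was higher and 1 lower, beside 17%. Of 31 effector and late genes of the hormone only ImpL2, Ldh and Eip63E were tested, and none was under an unadjusted 0.05 with or without the set as a term. Another 12 of the 31 had 0 counts in all libraries, among them the fat body genes Fbp1 and Fbp2 and the salivary glue genes Sgs3 and Sgs5.

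Of 7 genes that time neural fates 5 were tested, and with or without the set as a term 1 was past an unadjusted 0.05, beside 17% and 6.52% of all genes. lin-28, which encodes an RNA-binding protein of developmental timing, was at 22.4, 20.2, 48.9 and 98.8 CPM in CS and at 292, 119, 224 and 236 CPM in STIM KO. Each STIM KO library lay above each CS library, where 6.23% of all genes tested had no overlap between genotypes. The log2 fold change was 2.16 (standard error 0.60; adjusted p 0.534 by edgeR), and 2.34 (standard error 0.47; adjusted p 0.0529) with the set as a term, short of the threshold in both. Syp had 0 counts in every library, and whether its reads were counted as ambiguous was not tested. chinmo and Imp were read at 155 to 8430 and 224 to 4520 CPM, with replicates 1 and 2 above replicates 3 and 4.

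**Figure D5:**
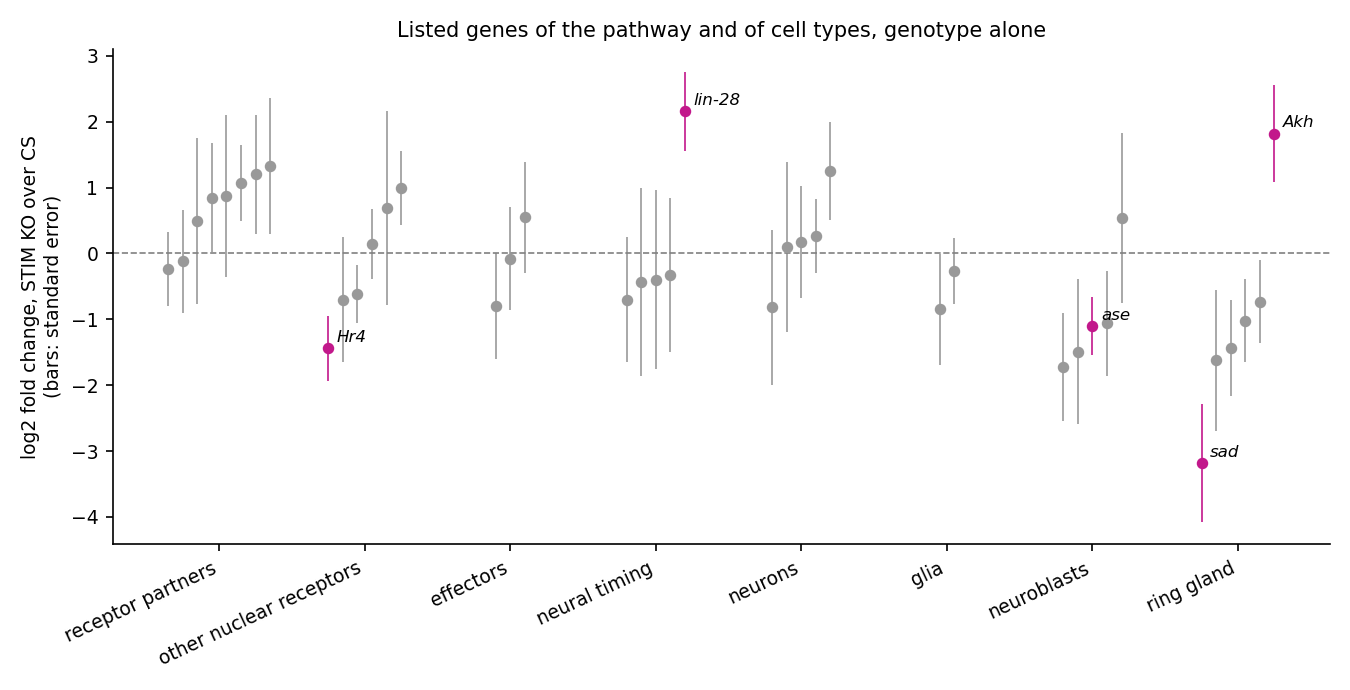
Fitted log2 fold change of STIM KO over CS with genotype alone (vertical axis; bars are standard errors) for the tested genes of each list; magenta and named where the unadjusted p was under 0.05. The named genes are Hr4 (-1.44), lin-28 (2.16), ase (-1.10), sad (-3.18) and Akh (1.82), and none passed an adjusted p of 0.05 in this fit.

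Ring gland markers, among them enzymes that make ecdysone, were read in the same libraries. All 8 had counts. Summed over the list, CS replicates 1 to 4 stood at 1040, 1300, 5730 and 8210 CPM, against 1550, 892, 885 and 3200 for STIM KO. For replicates 1 and 2 the mean of this sum was 1170 (CS) against 1220 (STIM KO). For replicates 3 and 4 it was 6970 against 2050, so the mean was lower for the mutant in that set only. Most of the sum in replicates 3 and 4 was spok. Of the 6 tested, sad was lower and Akh higher at an unadjusted p under 0.05 with genotype alone, beside 6.52% of all genes. sad, which encodes a cytochrome P450 of the last steps of ecdysone synthesis, was at 260, 352, 954 and 883 CPM in CS and at 35.9, 17.5, 25.1 and 190 CPM in STIM KO. The genotypes did not overlap, as for 6.23% of all genes tested. Its log2 fold change was -3.18 (standard error 0.89; adjusted p 0.534 by edgeR). With the set as a term it was -3.28 (standard error 0.56, adjusted p 0.0305 by edgeR), where sad was called lower, beside 0.704% of all genes called. With the replicate block it was -3.62 (adjusted p 0.0586 by edgeR), and sad was not called. Akh, the adipokinetic hormone of the corpora cardiaca, had 62.7 to 191 CPM in CS and 78.7 to 861 CPM in STIM KO, a fitted log2 difference of 1.82 (standard error 0.74; edgeR, adjusted p 0.697). The other 4, among them spok at 417 to 6580 CPM in CS and 243 to 2440 CPM in STIM KO, had log2 fold changes below 0 and an unadjusted p of 0.0807 or more with genotype alone. When the set was a term, sro (-1.67; edgeR, unadjusted p 0.0231, adjusted p 0.213) and spok (-1.17; unadjusted p 0.0425, adjusted p 0.274) were under an unadjusted 0.05, so that 3 of the 6 were lower and 1, Akh, higher, beside 17%. Both encode enzymes of ecdysone synthesis.

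Markers of other cell types were read beside these genes. Of 5 neuroblast markers 1 was lower in STIM KO at an unadjusted p under 0.05 with genotype alone and 0 were higher, beside 6.52% of all genes: ase, a proneural gene of neuroblasts, was at 299 to 426 CPM in CS and 108 to 245 CPM in STIM KO, a fitted log2 difference of -1.10 (standard error 0.44; edgeR, adjusted p 0.697). With the replicate block 2 of the 5 were lower at that threshold, ase and wor, beside 14.7% of all genes. The summed neuroblast markers were at 1110 to 1300 CPM in CS and 307 to 1370 CPM in STIM KO. Summed markers of neurons were at 394 to 6880 and 695 to 4470 CPM and those of glia at 477 to 984 and 338 to 636 CPM, and with genotype alone none of their 5 and 2 tested genes was under an unadjusted 0.05. The neuronal gene nSyb was, with the set as a term, higher (1.44; edgeR, unadjusted p 0.00857, adjusted p 0.139) and the glial gene wrapper lower (-0.92; unadjusted p 0.0106, adjusted p 0.152) at that threshold, beside 17% of all genes. Of the muscle markers Mlc2 alone was tested, at 283 to 890 CPM in CS and 212 to 916 CPM in STIM KO, and Mhc, up, wupA and Tm2 had 8 to 35 counts each over all 8 libraries. Markers of fat body (at most 26.3 CPM), salivary gland (at most 18.2 CPM) and blood cells (at most 6.06 CPM) were near 0 in both. The part of the ring gland and neuroblast RNA in the values of br, Eip75B and EcR was not tested.

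Among the 5539 other genes tested, those whose levels followed each of the 5 genes most closely over the 8 libraries, after the mean of each set was taken away, were for br CG43902 (Pearson r = 0.987) and Myo81F (0.980). For EcR they were sbb (0.961) and TBC1D5 (0.958), and for Eip75B Eph (0.962) and CG12236 (0.961). For Eip78C they were rho-4 (0.931) and CG14982 (0.927), and for Kr-h1 CG9855 (0.983) and Cht11 (0.982). These are the highest of many correlations over 8 libraries that share depth and genotype, and they are given as a description. Between the 5 genes themselves the same measure ran from -0.570 (EcR and Kr-h1) to 0.696 (EcR and Eip75B), with values of both signs.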

How the data were processed

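The authors made cDNA from low amounts of RNA with the SMART-Seq v4 kit, prepared Nextera XT libraries, sequenced single reads, checked and trimmed them with FastQC and trimmomatic, and aligned them to dm6 with HISAT2. The deposited counts are whole reads that HTSeq gave to each RefSeq transcript in each library, without normalization. The annotation, strand setting and overlap mode are not given in the sources used here. Summary entries (no feature, ambiguous, not aligned) were left out of library totals; counted reads were 3.6% to 11.6% of a library. A deposited table of the authors' own DESeq2 comparison, with mean counts, fold changes and p-values, was not used.

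Of 34463 identifiers, 34410 were matched to a gene by RefSeq's gene table (34399 with the version) and 53 were not. Counts were summed per gene. RefSeq identifiers were not linked to isoform letters, and levels were not compared between genes. The exon shares come from the Ensembl annotation. No 2 libraries agreed within sampling noise (lowest chi-square per degree of freedom 7.29).

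Tests used edgeR 4.0.16 in R 4.3.3 (TMM factors, the filterByExpr filter at min.count 10 and min.total.count 15, a quasi-likelihood test of genotype, Benjamini-Hochberg adjustment over all features tested). A prior count of 2 was added for log2 CPM. The exact permutation test of a single value (2-sided) took all 70 splits. No difference is given for usp, Hr3, ftz-f1 and Eip93F, which were at the floor in most libraries. Alternatives were DESeq2 1.42.0, limma 3.58.1 (voom with quality weights), other scalings, no filter, the replicate block, the library set as a term, each set alone, a prior count of 0.5, each library left out, and replicates 2 to 4, the last chosen after seeing the data. Residuals of same-numbered libraries correlated between genotypes at 0.377 to 0.776, of other numbers within a set at 0.336 to 0.716, and across sets at -0.788 to -0.385. By the rule that every same-numbered pair correlates above 0.1 the numbers pair the libraries, but they mostly carry the set. The fits were checked against simulated counts.

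The genes and lists were chosen with earlier results of these data known. All 10 genes are named with their transcripts of at least 10 counts; listed genes are named where the unadjusted p was under 0.05, up to 4 a list (Hr51, sro, spok, nSyb, wrapper and wor, past it only with the set or block, and the muscle markers were named after their values were seen); for each tested gene the 2 genes of highest correlation are named.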

Additional observations from a re-analysis of the deposited data

Results flagged for a closer look

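In 46 groups of 4 libraries, each of 1 gene or transcript in 1 genotype, a library was marked where its gap to the nearest other library took up more of the group's range on the log2 CPM scale than Dixon's 95% critical value for 4 samples; chance marks about 1 in 20 groups, and 5 were marked, of which 2 are the same counts seen as a gene and as its transcript. CS replicate 4 was low for br, at 42.9 CPM where the other CS libraries were at 119 to 137 CPM. STIM KO replicate 2 was high for Eip74EF, at 62.6 CPM where the others were at 0.483 to 1.98 CPM. STIM KO replicate 4 was low for Eip78C, at 3.46 CPM for the gene and 3.52 CPM for its transcript NM_168892.3, where the others were at 9.66 to 11.6 CPM for the gene. CS replicate 3 was high for the br transcript NM_001201596.3, at 6.06 CPM from 13 counts, where the other CS libraries had 0 or 1 count.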

How the results depend on the processing

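The number of genes called by genotype at an adjusted p of 0.05 was 0 by edgeR with genotype alone, with 361 at an unadjusted p under 0.05. It was 16 with the replicate block, 39 with the library set as a term, 78 by DESeq2, 35 by limma voom with quality weights, 2 with library size only and 4 with no filter. For transcripts it was 0 (355 unadjusted), and 14 with the replicate block, 39 with the set, 81 by DESeq2, 26 by limma voom, 2 with library size only and 30 with no filter. Leaving out any 1 library gave 0 for both, and so did DESeq2 size factors and replicates 2 to 4. Of the 10 genes, 0 passed an exact p of 0.05, and 0 to 1 did with 1 library left out (br without STIM KO replicate 4). None of the 10 genes or of their transcripts was called under any of these settings. The replicate block moved the counts above and changed the call of none of the 10 genes.

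The log2 fold change of EcR, -0.46, was 0.45 with the replicate block, 0.20 with the set, 0.89 by limma voom and 1.45 over replicates 2 to 4, and -1.75 to 1.39 with 1 library left out. That of its transcript NM_001169590.2, -0.52, was 0.18 with the replicate block, 0.55 by limma voom and 1.41 over replicates 2 to 4, and -1.92 to 1.36 with 1 left out. That of Eip75B, 0.03, was -0.05 by DESeq2, with DESeq2 size factors and by limma voom, and -0.24 to 0.46 with 1 left out. That of Eip75B NM_001259893.2, -0.83, was 0.32 by limma voom and 0.07 over replicates 2 to 4, and -1.83 to 0.09 with 1 left out. That of Eip78C, 0.17, was -0.11 to 0.57 with 1 left out. Differences in mean log2 CPM with 1 library left out were -0.58 to 1.41 for EcR, -0.21 to 0.43 for Eip75B and -0.13 to 0.44 for Eip78C. The cause of these reversals was not tested. The values of br, br NM_166896.3 and Eip75B NM_001259892.1 kept their direction under every setting. So did those of br NM_001144672.3, br NM_166897.2 and Eip75B NM_168757.1, all higher in STIM KO. The values of Eip75B NM_001316451.1 and NM_079409.3 stayed lower in STIM KO, so a kept direction was not particular to the first named. Those of Kr-h1 stayed above 0, but its log2 fold change was only 0.02 over replicates 2 to 4. The replicate numbers carry mostly the library set, and the shallower libraries, with floors up to 9.62 CPM, limit what can be seen of usp. Hr3, ftz-f1 and Eip93F were at or under the floor in the deeper libraries too. How many of their reads were counted as ambiguous was not tested.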
